A study of Mus musculus with 8 samples.

Results

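The Hox genes are described here by cluster (A to D) and by paralog number, the number in the gene's name that gives its place along the cluster. Every probe whose gene symbol is Hox followed by a letter from a to d and a number was taken, which gave 38 of the 16593 genes on the array and 50 of its 25697 probes. Cluster A held 10 of the 38 genes, cluster B 10, cluster C 9 and cluster D 9. Paralog numbers 1 to 3 (7 genes) are called anterior here, 4 to 8 (15 genes) central and 9 to 13 (16 genes) posterior.

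Hox genes encode homeodomain transcription factors that give cells their position along the head-to-tail axis. Their order along a cluster follows the order of their expression in the embryo: low paralog numbers act in the hindbrain and neck, intermediate ones in the trunk, and high ones in the lumbar and tail regions and the limbs. Cells of the forebrain and midbrain form in front of the Hox domain, and pluripotent cells keep the clusters under Polycomb repression. Hox proteins bind DNA together with TALE homeodomain partners of the PBX and MEIS families.

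The study asked whether induced neural stem cells (iNSCs), which are made directly from mouse embryonic fibroblasts (MEFs), can be carried on to pluripotency, and whether the resulting cells keep traces of earlier states. Total RNA of 8 samples was hybridised to Illumina mouse bead arrays, 1 array each. MEFs, brain-derived neural stem cells (NSCs), the iPSCs made from NSCs with *Oct4* and *Klf4* (NSC 2F iPSCs), the iPSCs made from MEFs with *Oct4*, *Sox2*, *Klf4* and *Myc* (MEF 4F iPSCs) and embryonic stem cells (ESCs) were labelled B6D2F1/J, and the series' design text gives MEFs, NSCs and ESCs a Tet-On background. The iNSCs, made with *Brn4*, *Sox2*, *Klf4* and *Myc*, and 2 iPSC clones derived from them with *Oct4* and *Klf4* (iNdiPSC-1 and iNdiPSC-4) were labelled C3H, so that strain and cell type cannot be told apart wherever iNSCs or iNdiPSCs are compared with the other samples. All iPSC lines were grown on feeder cells in 2i medium. The iNSCs carry a label of pluripotent but were treated as somatic cells. Of 7 pluripotency markers, 2 were detected in them, *Zfp42* (5.45) and *Dppa5a* (5.22), while *Nanog* (4.96) and the others were not.

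Between 11087 and 12128 probes were detected per array, and levels are given as background-corrected, quantile-normalised log2 intensities. A gene was called detected where its probe's detection p-value was below 0.01, and the weakest detected probe of each array, its floor, lay between 4.97 and 5.27. Of the 10 fibroblast markers on the array, 10 were detected in MEFs, 2 in NSCs and 0 in iNSCs. Neural stem cell markers numbered 4 of 7 in NSCs and 5 of 7 in iNSCs, with *Fabp7* and *Olig2* detected on these 2 arrays alone and *Pax6* and *Sox1* on none. Pluripotency markers were detected in 7 of 7 cases in each of the 5 pluripotent lines, in 2 of 7 in iNSCs and in 1 of 7 in MEFs and in NSCs. The RNA was that of whole cultures, so that fewer cells expressing a gene and less RNA per cell cannot be told apart.

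To show the sequence at genes whose levels went opposite ways on the iNSC array, 150 bases before the transcript start are printed for *Hoxa5* and *Hoxa7*, higher in iNSCs than in MEFs, and for *Hoxa11* and *Hoxd10*, detected in MEFs alone. The sequences are RefSeq's on build GRCm38.p6 and read 5′ to 3′ on the gene's strand, with CpG dinucleotides in capitals. They lie at chr6:52204588-52204737, chr6:52218574-52218723 and chr6:52245811-52245960 on the minus strand and at chr2:74691741-74691890 on the plus strand.
Hoxa5: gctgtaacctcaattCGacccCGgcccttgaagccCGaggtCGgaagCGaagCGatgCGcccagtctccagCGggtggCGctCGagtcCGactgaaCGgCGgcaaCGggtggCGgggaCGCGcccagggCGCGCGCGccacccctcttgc
Hoxa7: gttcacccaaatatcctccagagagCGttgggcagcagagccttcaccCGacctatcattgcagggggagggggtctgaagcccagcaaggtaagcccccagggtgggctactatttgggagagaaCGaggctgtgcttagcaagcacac
Hoxa11: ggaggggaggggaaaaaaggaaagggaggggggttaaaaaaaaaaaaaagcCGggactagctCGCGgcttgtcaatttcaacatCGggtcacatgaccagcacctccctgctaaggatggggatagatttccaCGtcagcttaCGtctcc
Hoxd10: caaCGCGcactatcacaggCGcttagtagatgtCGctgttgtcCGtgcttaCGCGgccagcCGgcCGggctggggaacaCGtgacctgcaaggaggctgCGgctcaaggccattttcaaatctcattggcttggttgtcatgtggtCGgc

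The stretches held 21 CpGs at *Hoxa5*, 3 at *Hoxa7*, 6 at *Hoxa11* and 12 at *Hoxd10*. CpGs were thus both many and few among the genes higher in iNSCs. In windows of 300 bases, 250 before the start and 50 after it, searched on both strands, the motif CCAAT was found at *Hoxa5* and *Hoxd10* and at 37.4% of the 32851 promoters in the table. The TATA-box letters TATAAA were found at none of these 4 and at 13.6% of promoters, and TGATTNAT, the letters of a combined PBX and Hox site, at none of the 4 and at 3.2%. A comparison over the whole family was void, because the table matched only 22 of the 38 genes.

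At a detection p-value below 0.01, most Hox genes were detected in MEFs and in iNSCs, and most were undetected on the other arrays. MEFs had 23 of 38 detected (60.5%, beside 48.1% of all genes on that array) and iNSCs 20 (52.6%, beside 46.7%). NSCs had 3 (7.9%, beside 46.5%) and ESCs likewise 3 (7.9%, beside 45.9%). Among the iPSC lines, each iNdiPSC clone had 6 (15.8%, beside 48.6% and 48.7%), NSC 2F iPSCs 4 (10.5%, beside 47.5%) and MEF 4F iPSCs 11 (28.9%, beside 50.5%). The order of the pluripotent lines depended on the threshold: at a detection p-value below 0.05, iNdiPSC-1 had 18 Hox genes detected (47.4%, beside 56.2% of all genes), MEF 4F iPSCs 14 (36.8%, beside 56.2%) and iNSCs 21 (55.3%, beside 50.9%).

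**Figure D1:**
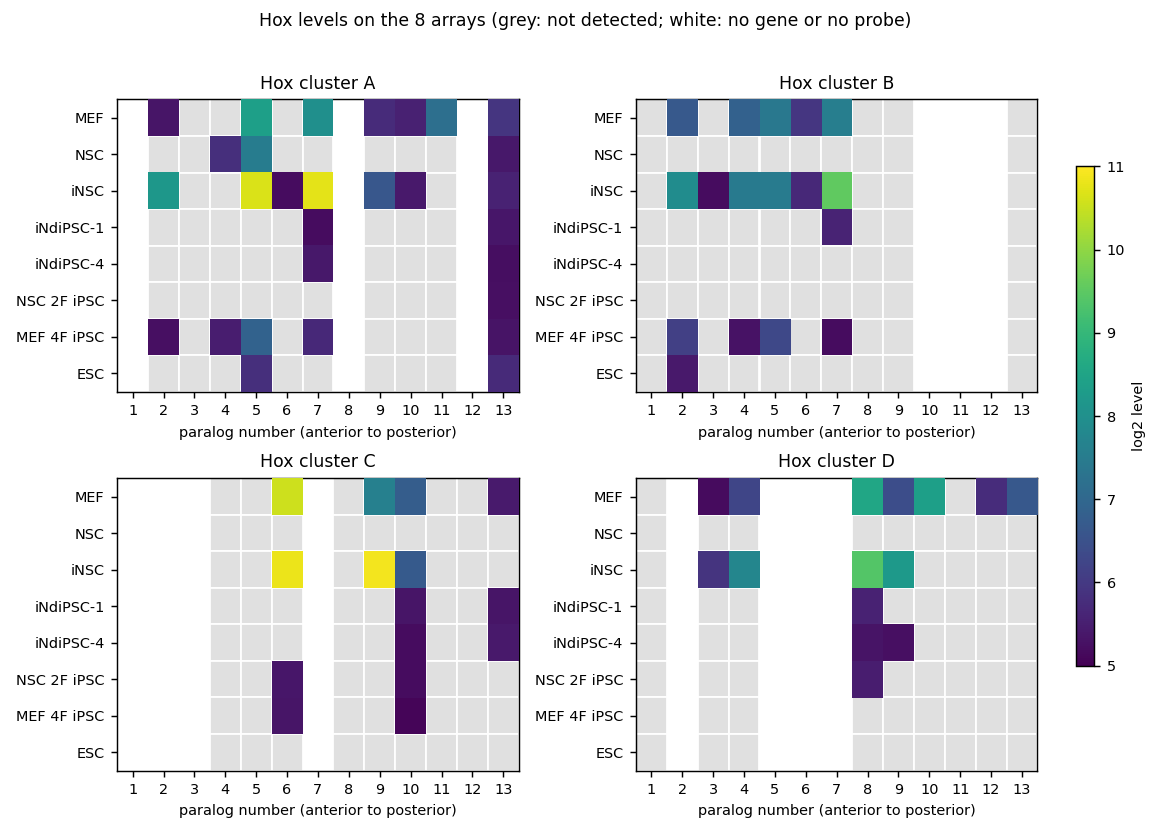
Log2 level of each Hox gene (colour) on the 8 arrays (rows), with the paralog number on the x axis and 1 panel per cluster; grey squares were not detected and white squares have no gene or no probe. Most coloured squares lie in the MEF and iNSC rows, which also hold grey ones. At the right end of cluster D, Hoxd10, Hoxd12 and Hoxd13 are coloured in MEFs only and Hoxd11 on no array.

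Taken by position, the MEF array had 3 of 7 anterior, 9 of 15 central and 11 of 16 posterior genes detected. The iNSC array had 4 anterior, 10 central and 6 posterior genes, so that the count was lower in the posterior group and only slightly higher in the other groups. By cluster, MEFs had 7 genes of A, 5 of B, 4 of C and 7 of D, and iNSCs 7 of A, 6 of B, 3 of C and 4 of D. Both arrays shared 18 genes, which is 78.3% of those detected in MEFs and 90.0% of those detected in iNSCs. Over all genes the shares were 86.1% and 88.7%.

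In MEFs but not in iNSCs, 5 genes were detected: *Hoxa11*, *Hoxc13*, *Hoxd10*, *Hoxd12* and *Hoxd13*, all 5 with paralog numbers of 10 or more. The genes detected in iNSCs but not in MEFs were *Hoxa6* (5.19) and *Hoxb3* (5.21), both close to the floor. Apart from *Hoxa13*, the highest paralog number detected in iNSCs was 10. *Hoxa13* was listed as detected on all 8 arrays (5.22 to 5.92), but through 1 of its 3 probes, and the other 2 were detected on none. The 12 genes detected on no array were *Hoxa3*, *Hoxb1*, *Hoxb8*, *Hoxb9*, *Hoxb13*, *Hoxc4*, *Hoxc5*, *Hoxc8*, *Hoxc11*, *Hoxc12*, *Hoxd1* and *Hoxd11*.

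**Figure D2:**
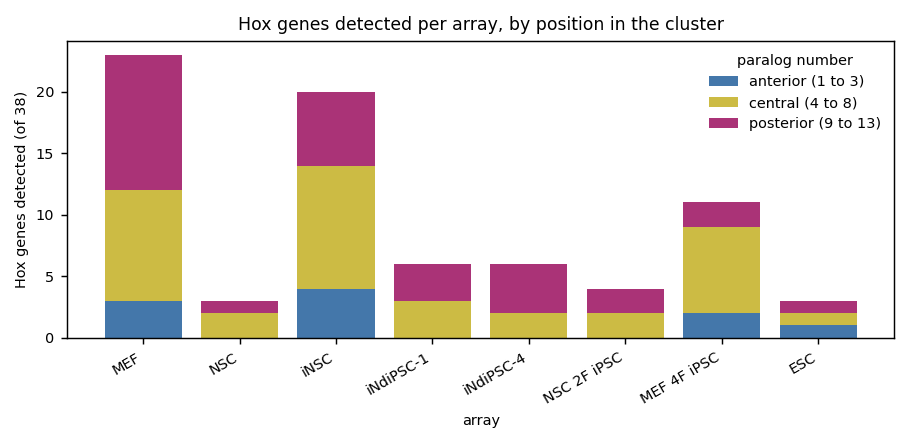
Number of Hox genes detected (y axis, of 38) on each array (x axis), stacked by anterior, central and posterior paralog number; there is 1 array per bar and no error. MEFs (23) and iNSCs (20) stand above the other arrays, with 11 posterior genes in MEFs and 6 in iNSCs.

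The first comparison was that of MEFs with brain-derived NSCs of the same labelled strain. Higher in MEFs by at least 2-fold were 14 of the 24 Hox genes detected on either array, and lower were 0, where 17.1% of all genes detected on either array were higher and 17.9% lower. The median log2 difference was 1.35 for these 24 genes and -0.12 for all genes. The 14 comprised 1 of 3 anterior, 7 of 10 central and 6 of 11 posterior genes. The anterior *Hoxa2* (5.34) and *Hoxd3* (5.18) were too near the floor in MEFs to reach 2-fold. With 1 array on each side, these and the other differences between single arrays have no replicate check.

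*Hoxc6*, a gene of the thoracic region, was at 10.54 in MEFs, 4.30 in NSCs and 10.82 in iNSCs. In the pluripotent lines it was at 4.94 in iNdiPSC-1, 4.47 in iNdiPSC-4, 5.36 in NSC 2F iPSCs, 5.33 in MEF 4F iPSCs and 4.75 in ESCs. It was undetected in NSCs, both clones and ESCs, and the MEF and NSC levels differed by at least 40.67-fold. The iNSC level of this gene lay within 1.22-fold of that in MEFs.

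*Hoxd8*, likewise a trunk gene, stood at 8.55 in MEFs, 4.32 in NSCs, 9.40 in iNSCs, 5.58 in iNdiPSC-1, 5.32 in iNdiPSC-4, 5.47 in NSC 2F iPSCs, 4.69 in MEF 4F iPSCs and 4.66 in ESCs. It was undetected in NSCs, MEF 4F iPSCs and ESCs. Its level in MEFs was at least 10.27-fold that in NSCs, and its level in iNSCs 1.80-fold that in MEFs.

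*Hoxb4*, which acts in the hindbrain and in blood progenitors, was at 6.87 in MEFs, 4.55 in NSCs, 7.47 in iNSCs, 4.83 in iNdiPSC-1, 4.60 in iNdiPSC-4, 4.42 in NSC 2F iPSCs, 5.30 in MEF 4F iPSCs and 4.38 in ESCs. It was detected in MEFs, iNSCs and MEF 4F iPSCs only. MEFs exceeded NSCs at least 3.19-fold, and iNSCs exceeded MEFs 1.52-fold.

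The 3 Hox genes detected in NSCs belonged to cluster A: *Hoxa4*, *Hoxa5* and *Hoxa13*. *Hoxa5*, which patterns the neck and the airways, stood at 7.52 in NSCs, 8.39 in MEFs and 10.65 in iNSCs. It was at 4.79 in iNdiPSC-1, 4.94 in iNdiPSC-4, 4.47 in NSC 2F iPSCs, 6.89 in MEF 4F iPSCs and 5.81 in ESCs. It was thus present in all 3 somatic samples and undetected in both clones and in NSC 2F iPSCs. MEFs and NSCs differed in it by 1.82-fold, less than the 2-fold threshold.

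*Hoxa4*, its neighbour in the cluster, was at 5.80 in NSCs and 5.48 in MEF 4F iPSCs and detected on no other array, with 5.04 in MEFs, 4.79 in iNSCs, 4.50 in iNdiPSC-1, 4.97 in iNdiPSC-4, 4.69 in NSC 2F iPSCs and 4.46 in ESCs. It was the only Hox gene detected in NSCs but in neither MEFs nor iNSCs, and its lead over MEFs was at least 1.63-fold. *Hoxa13*, a gene of the digits and the tail end, was at 5.92 in MEFs, 5.38 in NSCs, 5.58 in iNSCs, 5.37 in iNdiPSC-1, 5.22 in iNdiPSC-4, 5.25 in NSC 2F iPSCs, 5.32 in MEF 4F iPSCs and 5.71 in ESCs. These levels stayed close together, over a range of 0.70 on the log2 scale.

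The second comparison set iNSCs beside NSCs and asked how far the induced cells matched brain-derived ones. Higher in iNSCs by at least 2-fold were 14 of the 21 Hox genes detected on either array, and lower were 0, where 8.82% of all genes were higher and 8.95% lower. The medians were 2.31 for the 21 Hox genes and 0.02 for all genes. The 14 fell into 2 of 4 anterior, 8 of 11 central and 4 of 6 posterior genes, and each cluster had at least 3 of them. The fibroblast markers summed, on the linear scale, to 210.4 in iNSCs, 339 in NSCs and 29837 in MEFs. These sums include undetected markers at their background level, and the iNSC sum holds no detected marker. In NSCs *Thy1* (6.78) and *Prrx1* (5.86) were detected and the other fibroblast markers were not.

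Between iNSCs and MEFs, the question was which Hox levels of fibroblasts the iNSCs shared. Their strain labels differ, so that by label the MEFs measured were not the donors of these iNSCs. The differences are thus between 2 populations and do not trace a change during conversion. Of the 25 Hox genes detected on either array, 8 were at least 2-fold higher in iNSCs, 3 at least 2-fold lower and 14 within 2-fold. Over all genes 17.6% were higher and 16.5% lower. The medians were 0.29 for the Hox genes and 0.13 for all genes.

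The differences were also counted by paralog position. Of the anterior genes 2 of 4 were higher and 0 lower, of the central genes 4 of 10 were higher and 0 lower, and of the posterior genes 2 of 11 were higher and 3 lower. Over the 25 genes, the log2 difference between iNSCs and MEFs and the paralog number correlated with Pearson's r = -0.48 and Spearman's rho = -0.58. Without *Hoxa13* these were -0.47 and -0.54 over 24 genes. These are descriptions across genes of 1 pair of arrays, in which neighbouring genes are not independent.

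**Figure D3:**
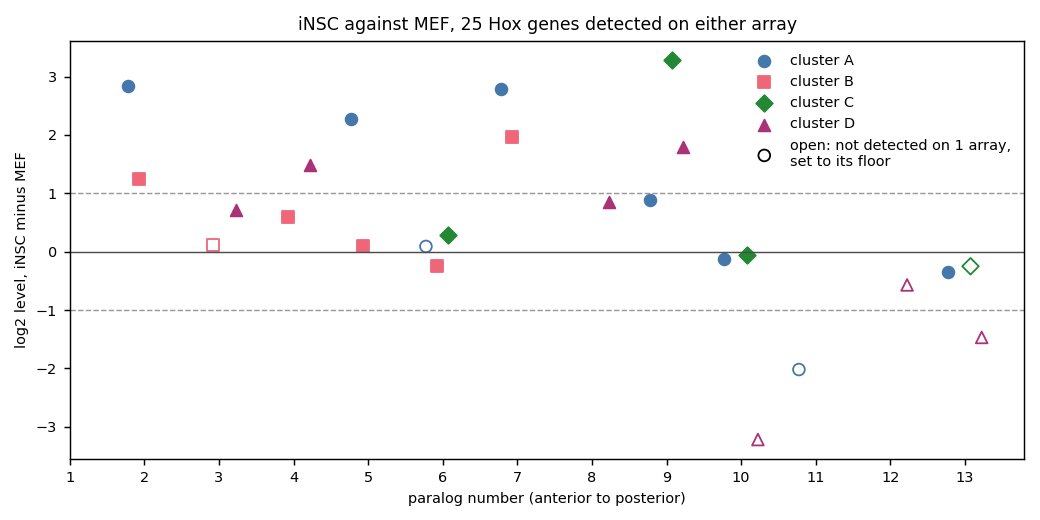
Log2 difference between iNSCs and MEFs (y axis) against paralog number (x axis) for the 25 Hox genes detected on either array, with colour and shape giving the cluster; open symbols were undetected on 1 of the arrays and were set to its floor, and dashed lines mark 2-fold. Of the genes above the upper line, none has a paralog number above 9, and those below the lower line (Hoxd10, Hoxa11 and Hoxd13) have 10, 11 and 13.

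*Hoxc9*, a gene of the thoracic region, showed the largest excess of iNSCs over MEFs among the Hox genes, 9.79-fold. It was at 7.61 in MEFs, 4.24 in NSCs and 10.90 in iNSCs, and undetected on the other 5 arrays at 4.96 in iNdiPSC-1, 4.56 in iNdiPSC-4, 4.43 in NSC 2F iPSCs, 4.48 in MEF 4F iPSCs and 4.27 in ESCs. *Hoxd9* was at 6.42 in MEFs, 4.80 in NSCs, 8.23 in iNSCs, 4.96 in iNdiPSC-1, 5.24 in iNdiPSC-4, 4.54 in NSC 2F iPSCs, 4.53 in MEF 4F iPSCs and 4.61 in ESCs. It was detected in MEFs, iNSCs and iNdiPSC-4, and iNSCs exceeded MEFs by 3.49-fold. *Hoxa9*, of the same paralog number, was at 6.62 in iNSCs and 5.74 in MEFs, a 1.85-fold difference; 2 of its 3 probes were detected on these arrays and 1 was detected on none.

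*Hoxa2*, which patterns the hindbrain and the second pharyngeal arch, was at 5.34 in MEFs, 4.79 in NSCs, 8.18 in iNSCs, 4.74 in iNdiPSC-1, 4.36 in iNdiPSC-4, 4.37 in NSC 2F iPSCs, 5.24 in MEF 4F iPSCs and 4.89 in ESCs. In MEFs it lay just above the floor, and iNSCs exceeded MEFs by 7.14-fold. A second probe of this gene was detected in iNSCs alone (7.25). *Hoxb2*, its paralog, was at 6.67 in MEFs, 4.85 in NSCs, 7.92 in iNSCs, 4.77 in iNdiPSC-1, 4.62 in iNdiPSC-4, 4.74 in NSC 2F iPSCs, 6.13 in MEF 4F iPSCs and 5.41 in ESCs. Here iNSCs exceeded MEFs by 2.38-fold, and the MEF 4F iPSC and ESC levels were also above background.

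*Hoxa7*, a trunk gene, was at 7.98 in MEFs, 4.59 in NSCs, 10.75 in iNSCs, 5.21 in iNdiPSC-1, 5.39 in iNdiPSC-4, 4.85 in NSC 2F iPSCs, 5.70 in MEF 4F iPSCs and 4.98 in ESCs. It was undetected in NSCs, NSC 2F iPSCs and ESCs, and was 6.86-fold higher in iNSCs than in MEFs. *Hoxb7*, the cluster B gene of the same number, was at 7.57 in MEFs, 4.32 in NSCs, 9.54 in iNSCs, 5.59 in iNdiPSC-1, 4.90 in iNdiPSC-4, 4.34 in NSC 2F iPSCs, 5.21 in MEF 4F iPSCs and 4.41 in ESCs. Its iNSC level was 3.92-fold that in MEFs, and the 2 clones differed in detecting it.

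*Hoxd4* was detected in MEFs (6.25) and iNSCs (7.75) only, a 2.81-fold difference, with 4.24 in NSCs, 4.48 in iNdiPSC-1, 4.40 in iNdiPSC-4, 4.32 in NSC 2F iPSCs, 4.31 in MEF 4F iPSCs and 4.24 in ESCs. With *Hoxa5*, 4.81-fold higher in iNSCs than in MEFs, it completes the 8 genes that were higher. None of the 8 had a paralog number above 9.

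*Hoxd10*, which acts in lumbar patterning and the hindlimb, was at 8.39 in MEFs and detected on no other array. Its levels there were 4.48 in NSCs, 4.30 in iNSCs, 4.71 in iNdiPSC-1, 4.77 in iNdiPSC-4, 4.61 in NSC 2F iPSCs, 4.58 in MEF 4F iPSCs and 4.39 in ESCs. The MEF level was at least 9.29-fold that in iNSCs. *Hoxa11*, a gene of the forearm and the reproductive tract, had levels of 7.20 (MEFs) and 4.35 (iNSCs), apart by at least 4.06-fold. *Hoxd13*, a gene of the digits, had levels of 6.65 (MEFs) and 4.62 (iNSCs), apart by at least 2.77-fold. *Hoxd12* (5.75 and 4.34) and *Hoxc13* (5.43 and 4.40) were also undetected in iNSCs, but their MEF levels were too near the floor to show a 2-fold difference, at least 1.49-fold and 1.19-fold.

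Not all genes at the posterior end were lower in iNSCs than in MEFs, and not all others were higher. *Hoxc10*, a lumbar gene, was at 6.76 in MEFs, 5.01 in NSCs, 6.71 in iNSCs, 5.33 in iNdiPSC-1, 5.21 in iNdiPSC-4, 5.20 in NSC 2F iPSCs, 5.09 in MEF 4F iPSCs and 4.94 in ESCs. It was detected on 6 arrays, all except NSCs and ESCs, and MEFs and iNSCs lay within 1.03-fold. Its second probe was detected on the MEF and iNSC arrays only (6.61 and 6.57), and was between 4.28 and 4.37 in the pluripotent lines. *Hoxb5* (7.40 in MEFs and 7.50 in iNSCs) and *Hoxb6* (5.94 and 5.69) likewise lay within 1.07-fold and 1.19-fold.

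Further comparisons set the pluripotent lines beside the cell types they were made from. Here "fell" and "rose" mean lower and higher in the pluripotent line, because single arrays do not trace a change in the same cells. From iNSCs to the mean of the 2 iNdiPSC clones, 14 of the 21 Hox genes detected on either side fell by at least 2-fold and 0 rose, where 20.4% of all genes rose and 20.2% fell. The medians were -2.43 for the Hox genes and -0.01 for all genes. *Hoxa5* fell by at least 48.0-fold, *Hoxc6* by at least 53.97-fold and *Hoxa7* by 43.71-fold, the last still detected in both clones.

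**Figure D4:**
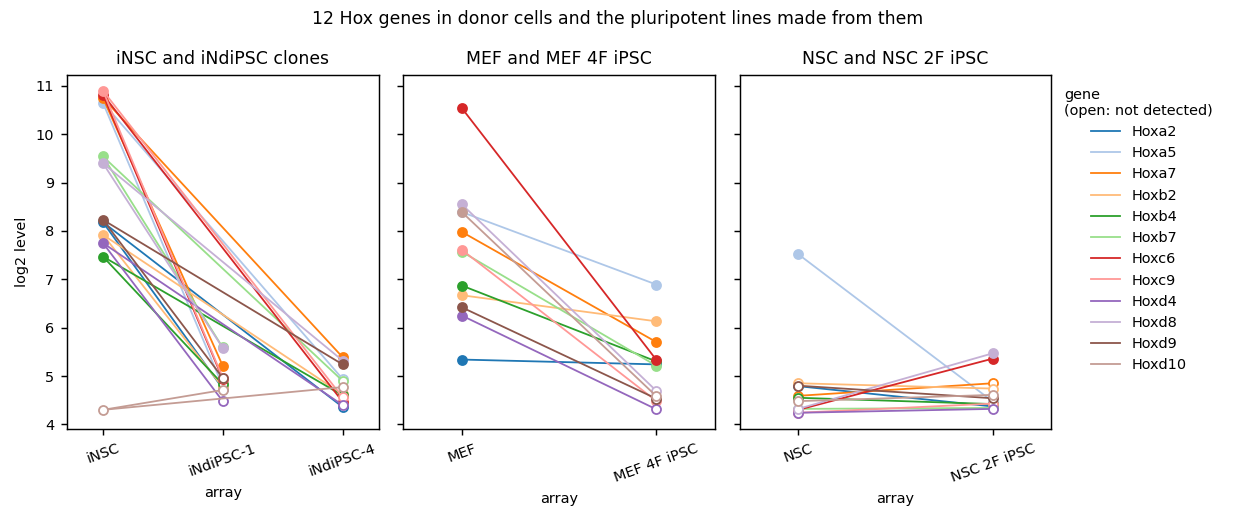
Log2 level (y axis) of the 12 Hox genes with the largest range over the 8 arrays, in donor cell types and in the pluripotent lines made from them (x axis), in 3 panels with 1 point per array. Filled points were detected, open points were not, and lines join each donor cell type to its derived lines. Most lines drop from donor to pluripotent cells in the iNSC and MEF panels, and in the NSC panel Hoxa5 alone starts detected.

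From MEFs to MEF 4F iPSCs, 14 of 24 Hox genes fell by at least 2-fold and 0 rose, where 21.9% of all genes rose and 21.1% fell. The medians were -1.37 for the Hox genes and 0.03 for all genes. The 14 comprised 0 of 3 anterior, 8 of 10 central and 6 of 11 posterior genes. The anterior *Hoxa2* (5.34 in MEFs) and *Hoxd3* (5.18) could not be counted as fallen. They lay less than 2-fold above the MEF 4F iPSC floor (4.97), as did some central and posterior genes. *Hoxc6* fell by 37.0-fold and *Hoxb7* by 5.15-fold. *Hoxb2* lay within 1.45-fold of its MEF level, and *Hoxa2*, near the floor on both arrays, within 1.08-fold.

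Between NSCs and NSC 2F iPSCs, few Hox genes were detected on either array. Of 6 Hox genes detected on either array, 0 rose and 1, *Hoxa5*, fell, by at least 5.16-fold, where 18.2% of all genes rose and 18.5% fell. This comparison was added after the values had been seen. *Hoxc6* (5.36) and *Hoxd8* (5.47) were detected in NSC 2F iPSCs but not in NSCs, with levels at least 1.13-fold and 1.21-fold higher.

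The pluripotent lines were then set beside ESCs, in which *Hoxa5* (5.81), *Hoxa13* (5.71) and *Hoxb2* (5.41) were detected. Between the clones and ESCs, 0 of 9 Hox genes were higher and 0 lower by at least 2-fold, where 5.47% of all genes were higher and 4.61% lower. Between NSC 2F iPSCs and ESCs, 0 of 6 were higher and 0 lower, where 3.86% of all genes were higher and 2.17% lower. Neither comparison could reach 2-fold in a Hox gene, so these counts of 0 do not show that levels were alike. The highest Hox level was 5.81 in ESCs, 5.59 in the clones and 5.47 in NSC 2F iPSCs. The floors of these arrays, to which undetected values were raised, lay between 5.06 and 5.27. In MEF 4F iPSCs, 2 of 11 were higher, *Hoxa5* by 2.11-fold and *Hoxb5* (6.30 beside 4.56) by at least 2.04-fold, and 0 were lower, where 6.02% of all genes were higher and 2.86% lower. Both genes lay just past the threshold.

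Of the 7 Hox genes detected in either clone, 5 were detected in both: *Hoxa7*, *Hoxa13*, *Hoxc10*, *Hoxc13* and *Hoxd8*, with *Hoxa13* and *Hoxc10* each resting on 1 probe while their other probes were undetected. The levels of the detected genes ran from 5.21 to 5.59, close to the floor, and the clones differed by at most 0.69 on the log2 scale. *Hoxc13*, a gene of hair and nail formation, was at 5.33 in iNdiPSC-1, 5.41 in iNdiPSC-4 and 5.43 in MEFs, and it was undetected on the other 5 arrays, the iNSCs (4.40) included. Thus the Hox genes detected in the clones were not only those detected in iNSCs.

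The 11 Hox genes detected in MEF 4F iPSCs were *Hoxa2*, *Hoxa4*, *Hoxa5*, *Hoxa7*, *Hoxa13*, *Hoxb2*, *Hoxb4*, *Hoxb5*, *Hoxb7*, *Hoxc6* and *Hoxc10*. Of these, 10 were also detected in MEFs, and 4 (*Hoxa2*, *Hoxa4*, *Hoxb4* and *Hoxb5*) were detected in no other pluripotent line, *Hoxa2* by 1 of its 2 probes (the other was at 4.59). By cluster, they comprised 5 genes of A, 4 of B, 2 of C and 0 of D, although 7 genes of cluster D were detected in MEFs. Feeder cells were present in the iPSC cultures, and fibroblast markers were detected in these lines as well. MEF 4F iPSCs had 7 of 10 detected, with a summed linear level of 1090.2, and NSC 2F iPSCs likewise 7, with 1417.6, while the clones had 5 and 4 (585.6 and 433.1) and ESCs 2 (351.6). The 7 markers detected in MEF 4F iPSCs ranged from *Prrx1* (5.05) to *Dcn* (8.53). *Postn*, *Pdgfrb* and *Col1a2* were undetected in all 5 lines, and *Postn* was also the weakest of the 10 in MEFs (6.14). The part of feeder RNA in single Hox levels or in the counts of detected Hox genes was not tested.

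Only 2 comparisons had several arrays on both sides. In the first, the 3 control pluripotent lines (ESCs, NSC 2F iPSCs and MEF 4F iPSCs) were compared with the 3 somatic samples by limma over 9007 genes, of which 12.9% were called higher and 10.4% lower at an adjusted p-value below 0.05 and at least 2-fold. Of the 19 Hox genes that passed the detection filter, 0 were called, and 1 (*Hoxa5*) had an unadjusted p-value below 0.05, as had 3685 of all genes (40.9%). Of the 19, 7 had entered the fit through somatic arrays alone, where they were high, so that their direction was given by the filter. With no filter, 31 of 38 Hox genes were lower in the pluripotent lines, with a median log2 difference of -0.67 beside -0.01 for all genes, and 0 were called. The 38 include the 12 genes detected on no array, so that the count of 31 rests in part on background signal. *Hoxa5* had a difference of -3.13 with a standard error of 0.94 and an adjusted p-value of 0.054. *Hoxc6* had a difference of -3.41 with a standard error of 1.70 and an adjusted p-value of 0.177.

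The somatic samples differed among themselves, with NSCs low for most genes that were high in MEFs and iNSCs. Without the NSC array, 14 of 18 Hox genes tested were called lower and 0 higher, where 11.3% of all genes were called lower and 15.1% higher. Each of the 14 was detected in both MEFs and iNSCs, which alone met the detection filter. The filter was thus met through the arrays where these genes were high, so that their direction was largely given in advance. The somatic side was then MEFs and cells made from MEFs, not replicates of 1 condition. The 14 were *Hoxa5*, *Hoxa7*, *Hoxa9*, *Hoxa10*, *Hoxb4*, *Hoxb5*, *Hoxb6*, *Hoxb7*, *Hoxc6*, *Hoxc9*, *Hoxc10*, *Hoxd4*, *Hoxd8* and *Hoxd9*. All 14 were central or posterior, as were most of the 18 tested. Without the MEF array, 1 of 12 was called lower, *Hoxa5*, where 18.0% of all genes were.

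In the second fit, the 2 clones were compared with the 3 control lines over 8400 genes, of which 0.571% were called higher and 0.595% lower. Of 9 Hox genes tested, 0 were called, and 1 (*Hoxc13*) had an unadjusted p-value below 0.05, as had 19.1% of all genes. *Hoxc13* had entered this fit through the clones alone, where it was high. It was higher in the clones by 0.51 on the log2 scale with a standard error of 0.18 and an adjusted p-value of 0.208. Both clones came from the same iNSCs, and their spread may be smaller than that between independent lines.

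Most TALE partners of Hox proteins were detected on arrays with many and with few detected Hox genes. Of the 7 on the array, 7 were detected in each somatic sample, beside 46.5% to 48.1% of all genes. In the pluripotent lines 5 to 7 were detected, beside 45.9% to 50.5% of all genes. *Meis1* was at 8.35 in MEFs, 10.41 in NSCs and 11.52 in iNSCs and between 5.79 and 6.45 in the pluripotent lines. *Meis2* was at 9.46, 10.19 and 10.94 in the same somatic samples and between 6.20 and 8.14 in the pluripotent lines. Thus NSCs, with 3 detected Hox genes, had higher levels of *Meis1* and *Meis2* than MEFs, with 23. *Pbx2* (5.75 in NSCs and 6.19 in MEFs) and *Meis3* (5.53 and 5.79) went the other way. By at least 2-fold, 0 of the 7 were higher in MEFs than in NSCs and 1 was lower, beside 17.1% and 17.9% of all genes. From iNSCs to the clones 3 of 7 fell by at least 2-fold (20.2% of all genes), and from MEFs to MEF 4F iPSCs likewise 3 of 7 (21.1% of all genes). *Evx1*, the homeobox gene beside *Hoxa13* at the posterior end of cluster A, was undetected in the somatic samples and in ESCs and was at 5.78 and 5.95 in the clones and 6.73 in NSC 2F iPSCs, while MEF 4F iPSCs had 5.28. *Evx2*, beside cluster D, was detected on no array.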

How the data were processed

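The report rests on 8 mouse samples, 1 array each. According to the submitters' processing notes, the authors used BeadStudio 3.2, lumi and RMA. The deposited table of scanner intensity values held an unnormalised mean per probe with a detection p-value (deposited p-values against negative control beads), and the deposited series table held the authors' processed log2 values; genome builds are not given in the sources used here. Intensities were background-corrected and quantile-normalised with neqc of limma 3.58.1 (R 4.3.3; offset 16). Symbols came from the platform annotation: 23978 of 25697 probes had 1 symbol and 1719 none. Each gene was represented by its probe of highest mean, and 9 of the 38 Hox genes had several probes, of which those of 6 (*Hoxa2*, *Hoxa9*, *Hoxa10*, *Hoxa13*, *Hoxb3* and *Hoxc10*) disagreed in detection on at least 1 array.

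Single arrays were compared over genes detected on either array; a gene was counted when its level differed by at least 2-fold after undetected values below the array's floor had been raised to it, and "at least" marks such folds. Fits used limma's lmFit and eBayes over genes detected on at least 2 of their arrays, with Benjamini-Hochberg adjustment, and were tested on simulated data. The number of arrays limits the precision. Where nothing says that samples came from separate cultures, p-values measure the spread between these samples only. Genes were given in full when they were among the 12 with the largest range over arrays, or were detected in NSCs or on at least 3 pluripotent arrays; others are named where a count of 5 or fewer, or a comparison, singled them out after their values were seen. Members and gene lists were chosen with earlier results of these data known. Alternatives covered background correction, scaling, the authors' values, probe averaging, detection and fold thresholds, and leaving out arrays.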

Additional observations from a re-analysis of the deposited data

How the results depend on the processing

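Limits: 1 array stood for each cell type, so that differences between single arrays carry no replicate check. In the clones, NSC 2F iPSCs and ESCs the detected Hox levels lay near background, and detection depended on its threshold: at a detection p-value below 0.05, 7 Hox genes were detected in NSCs, 18 in iNdiPSC-1, 11 in iNdiPSC-4, 7 in NSC 2F iPSCs, 7 in ESCs, 14 in MEF 4F iPSCs, 21 in iNSCs and 26 in MEFs, so that iNdiPSC-1 passed MEF 4F iPSCs. Without background correction, which compresses folds, MEFs against NSCs had 7 Hox genes higher, MEF 4F iPSCs against MEFs 7 lower, iNSCs against MEFs 6 higher and 1 (*Hoxd10*) lower, and MEF 4F iPSCs against ESCs 0 higher. At a 4-fold threshold, MEFs against NSCs had 8 higher, iNSCs against MEFs 4 higher, MEF 4F iPSCs against MEFs 7 lower and MEF 4F iPSCs against ESCs 0 higher. Scaling to the 75th percentile moved the median difference of all genes between compared arrays by up to 0.15 (log2). It left 1 gene (*Hoxa5*) higher in MEF 4F iPSCs than in ESCs. With the authors' values, 1 gene was lower in iNSCs and 1 in MEFs than in NSCs (*Hoxa4* in both), 1 (*Hoxa5*) was lower in the clones and 1 (*Hoxa5*) in NSC 2F iPSCs than in ESCs, and 2 (*Hoxa4* and *Hoxa5*) fell from NSCs to NSC 2F iPSCs. In the fit of control lines against somatic samples, 1 Hox gene (*Hoxa5*) was called lower when detection on at least 3 arrays was required and 1 (*Hoxa5*) with all 8 arrays in 1 fit; leaving out each array in turn gave 0 to 14. Over all genes that fit called 1166 higher and 935 lower, 712 and 532 without background correction, and 441 to 1595 and 272 to 1577 with 1 array left out. The fit of clones against control lines called 48 and 50, and 0 to 67 and 1 to 69 under the alternatives. Of 164 counts compared, 141 kept within 1.5 times, and of 252 single-gene differences 117 moved by less than the clones' spread and 0 of those called changed sign. The cause of these shifts was not tested. No paired analysis was run. MEF 4F iPSCs derive from MEFs and NSC 2F iPSCs from NSCs, and the fit of control lines against somatic samples treated these arrays as independent.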

Other observations

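Other genes of axial position differed between the 2 kinds of neural stem cell. Of 11 forebrain and midbrain genes on the array, 5 were detected in NSCs (*Otx1*, *Otx2*, *Lhx2*, *En1* and *En2*) and 3 in iNSCs (*Otx1*, *Lhx2* and *En2*). Of all genes, 46.5% were detected in NSCs and 46.7% in iNSCs, so that the NSC count was near the share of all genes. *Otx2*, which forebrain and midbrain require, was at 7.18 in NSCs and undetected in iNSCs at 4.34, and *En2*, a gene of the midbrain and hindbrain boundary, was at 9.12 and 6.82. Between the 2 arrays, 0 of the 5 genes detected were higher in iNSCs and 3 were lower by at least 2-fold, beside 8.82% and 8.95% of all genes detected on either array. *Otx2* and *En2* were also detected in the pluripotent lines, from 8.26 to 10.73 and from 6.61 to 7.16.

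Genes of limb and body wall identity were detected in 7 of 12 cases in MEFs, 4 in iNSCs (*Tbx3*, *Tbx18*, *Shox2* and *Msx1*) and 1 in NSCs (*Msx1*). Of all genes, 48.1% were detected in MEFs, 46.7% in iNSCs and 46.5% in NSCs. *Shox2*, a regulator of limb growth, was at 6.96 in MEFs and 6.69 in iNSCs and undetected in NSCs at 4.98. *Msx1* was at 9.30 in MEFs, 7.74 in iNSCs and 6.54 in NSCs. *Hand2*, *Tbx4* and *Msx2* were detected in MEFs only (6.53, 5.54 and 5.28). Of the 4 genes detected in NSCs or iNSCs, 3 were higher in iNSCs and 0 lower, beside the same shares of all genes. *Tbx3* was higher in each pluripotent line (8.72 to 10.61) than in MEFs (6.53) and iNSCs (7.34).

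Of the 6 ParaHox genes, relatives of the Hox clusters elsewhere in the genome, 3 were detected in MEF 4F iPSCs: *Cdx1* (5.82), *Cdx2* (5.52) and *Gsx1* (5.04). This count was near the share of all genes detected on that array (50.5%), and *Gsx1* lay close to the floor (4.97). *Cdx2* was also detected in iNdiPSC-1 (5.13). *Cdx1*, of the caudal family, was at 6.45 in ESCs and 5.13 in MEFs and was undetected on the remaining 5 arrays.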
